A study of Mus musculus with 24 samples.

Results

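The late interval of T cell activation without Raptor was examined: 4 Raptor-deficient samples taken 24 h after stimulation were set against 4 Raptor-deficient samples taken at 8 h. They are 8 of the 24 samples of the series, chosen by genotype and stimulation time in the sample labels alone. All samples were mouse naive CD4 T cells (CD4+CD62LhiCD44loCD25-) sorted from spleen and peripheral lymph nodes. Raptor-deficient cells came from CD4(cre)Raptor(fl/fl) mice, in which a Cre recombinase driven by the Cd4 promoter removes a floxed part of Rptor in T cells that pass through the CD4-expressing stage. Wild-type cells came from mice labelled C57BL/6. Stimulation was by plate-bound antibodies to CD3 and CD28 for 8 h or 24 h. The other 16 samples serve here as comparison: 4 wild-type samples at 24 h, 4 at 8 h, and 4 unstimulated samples of each genotype. RNA was read on Affymetrix HT MG-430 PM arrays, and all levels are log2 intensities as deposited. Whether the 4 replicates of a group came from different mice is not given in the labels. The p-values therefore refer to sample-to-sample variation, which may be technical in part.

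Raptor (Rptor) is the scaffold that gives the kinase complex mTORC1 its substrates. mTORC1 senses growth factors, antigen receptor signals and amino acids, and it promotes ribosome production, translation, sterol and fatty acid synthesis and glycolysis while it restrains autophagy and lysosome formation. A naive T cell is small and quiescent. After it meets antigen it first transcribes immediate early genes, then enlarges, builds ribosomes and mitochondria, enters S phase and divides. The 8 h samples fall in the growth phase before division and the 24 h samples near the first S phase, so the interval between them covers the passage into the cell cycle in cells with mTORC1.

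Rptor itself, the targeted gene, measured 6.25, 6.60, 6.45 and 6.48 at 24 h and 6.41, 6.27, 6.5 and 6.79 at 8 h in Raptor-deficient samples. In wild-type samples it measured 7.07, 6.91, 7.15 and 7.21 at 24 h and 7.49, 7.51, 7.57 and 7.46 at 8 h. Every stimulated Raptor-deficient sample lay below every stimulated wild-type sample. The difference of Raptor-deficient minus wild type was -0.64 at 24 h (adjusted p = 0.0109) and -1.01 at 8 h (adjusted p = 0.000292), in limma fits across all genes. Between 24 h and 8 h in Raptor-deficient cells Rptor differed by -0.05 (adjusted p = 0.904). Where its probes lie relative to the removed part is not given in the sources used here, so the remaining signal is no measure of deletion.

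The 8 arrays separated by time: principal component 1 of these arrays held 63.9% of the variance, with scores of 19.4 to 29.3 at 24 h and -25.3 to -21.7 at 8 h. Replicates within each of these 2 groups correlated across genes with a Pearson r of at least 0.994. Array medians over all 24 samples lay between 5.15 and 5.29. Replicate 1 at 24 h carried liver transcripts. The mean level of 23 liver genes was 5.71 in that sample and 4.12 to 4.18 in the other 24 h samples, against 4.15 to 4.18 at 8 h. Albumin (Alb) read 9.11 in that sample and 6.22 to 6.36 in the others. Replicate 1 of wild type at 24 h carried the same transcripts, and 17 genes were at least 2-fold higher in replicate 1 than in every other replicate of both 24 h groups. Counts are therefore also given without replicate 1 at 24 h. Among the unstimulated samples, Raptor-deficient replicate 1 stood apart, with a residual SD of 0.280 against 0.119 to 0.222 in all others, and without it 4361 genes were called in place of the 3927 below.

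Markers of the labelled cell type were high. The mean of 11 alpha beta CD4 T cell genes was 9.93 to 10.05 at 24 h, against 9.59 to 9.65 at 8 h, and 4 of them rose. Thy1, a surface protein of T cells, read 10.34, 10.23, 10.43 and 10.48 at 24 h and 7.98, 8.56, 8.32 and 8.56 at 8 h. Cd4, the coreceptor, read 10.94 to 11.07 at 24 h and 9.81 to 9.94 at 8 h, and it had been lower at 8 h than in unstimulated cells by a difference of -0.95. Cd3d rose by 0.52 and Cd3g by 0.55. The Cd3g call was lost without replicate 1 at 24 h (adjusted p = 0.0624) and when most other single replicates were left out. The B cell, myeloid and NK cell lists lay near or below 5.51, the median of all values, and the CD8 and regulatory T cell lists lay above it. The 14 B cell genes averaged 5.16 to 5.68 at 24 h and 5.16 to 5.49 at 8 h, with replicate 1 highest at both times. One of them, the transcription factor Pax5, rose by 0.85. The 13 myeloid genes averaged 4.11 to 4.36 at 24 h and 4.42 to 4.58 at 8 h. Of these, S100a8, S100a9, Cd68 and Fcgr3 fell, and 2 of the 4 calls were lost without replicate 4 at 24 h. The 8 NK cell genes averaged 3.76 to 4.0 at 24 h and 3.75 to 3.92 at 8 h, with a rise of Nkg7 by 0.95. The coreceptor genes Cd8a and Cd8b1 rose by 0.77 and 0.60 and averaged 6.29 to 6.67 at 24 h, against 5.63 to 6.01 at 8 h. No member of the dendritic, erythroid, platelet, stromal or liver lists was called. In bulk RNA, more cells of a type and more RNA per cell cannot be told apart, and the part of the marker shifts in the results below was not tested.

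**Figure D1:**
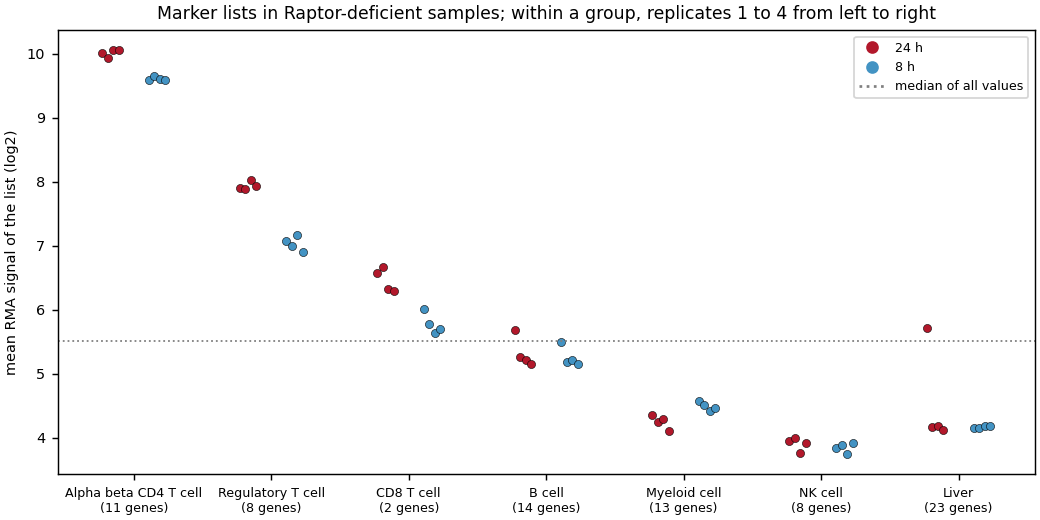
Mean log2 signal of marker gene lists in each of the 8 Raptor-deficient samples, 24 h to the left of 8 h. The CD4 T cell list lies at 9.93 to 10.05 at 24 h and 9.59 to 9.65 at 8 h, and the liver list stands at 5.71 in replicate 1 at 24 h only, with the other 7 samples at 4.12 to 4.18.

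Without Raptor, 3927 of 17097 genes changed between 8 h and 24 h (limma, Benjamini-Hochberg adjusted p under 0.05). Of all genes tested, 15.2% (2592) were higher at 24 h and 7.81% (1335) were lower. Leaving out replicate 1 at 24 h gave 3528 called genes, and 2325 of the higher and 1099 of the lower genes were among them. At least 2-fold changes numbered 420, of which 354 were rises and 66 were falls, and 26 genes rose at least 4-fold. One gene, Ramp3, fell at least 4-fold. Rises made up 66.0% of the calls on the deposited scale. That share was 54.7% after cyclic loess scaling (2155 higher, 1783 lower) and 56.8% after centring on array medians (2270 higher, 1729 lower), so the excess of rises depends on the scaling. In 2407 of the higher genes and 1151 of the lower genes, all 4 samples of one time lay beyond all 4 of the other. The median difference over all genes tested was -0.01.

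The same interval in wild-type cells changed 4845 genes, with 17.4% of all genes higher at 24 h and 11.0% lower. Both genotypes shared 1884 rises, which is 72.7% of the Raptor-deficient rises and 63.5% of the wild-type rises. They shared 883 falls, which is 66.1% of the Raptor-deficient falls and 47.0% of the wild-type falls. The difference of the late change, Raptor-deficient minus wild type, passed its own test in 774 genes: 1.33% of all genes with a more positive change without Raptor and 3.2% with a more negative one. Of the wild-type rises, 507 were significantly smaller in Raptor-deficient cells. Below, the wild-type change is given only where it shows how the Raptor-deficient interval differs.

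The largest rise was that of Igfbp4, which encodes a secreted binding protein for insulin-like growth factors. It read 9.75, 9.43, 9.69 and 9.78 at 24 h and 5.44, 5.90, 5.57 and 5.94 at 8 h in Raptor-deficient samples, a rise of 3.95 ± 0.28 (limma, adjusted p = 6.62e-11). The 2 sets of samples were far apart. Here and below, ± gives the limma SE, whose spread is estimated from all 6 groups together. The SD of Igfbp4 without Raptor was 0.16 at 24 h and 0.24 at 8 h, against 0.92 in unstimulated samples. Igfbp4 also rose in wild type, by 2.91. Stk39, a kinase that acts on ion cotransporters, read 8.13, 7.95, 8.47 and 8.37 at 24 h and 4.85, 4.85, 5.49 and 4.90 at 8 h (rise 3.21 ± 0.19, adjusted p = 2.44e-12). Ctla4, the inhibitory receptor that competes with CD28 for its ligands, read 8.51, 8.42, 8.66 and 8.62 at 24 h and 6.04, 5.67, 6.15 and 5.07 at 8 h (7.07-fold, adjusted p = 4.29e-13). Il2rb, the beta chain of the IL-2 and IL-15 receptors, read 10.34, 10.18, 10.40 and 10.41 at 24 h and 7.82, 7.64, 7.67 and 7.58 at 8 h (6.29-fold, adjusted p = 4.25e-13). Its rise was larger than in wild type by 0.69 (adjusted p of the difference 0.0394).

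Lag3, an inhibitory receptor for MHC class II, read 8.09, 7.85, 8.12 and 7.85 at 24 h and 5.71, 5.72, 5.68 and 5.63 at 8 h (4.90-fold). Gzmb, a protease of cytotoxic granules, read 7.83, 8.12, 7.54 and 6.79 at 24 h and 5.21, 5.31, 5.07 and 4.94 at 8 h (5.41-fold, adjusted p = 5.68e-09). Its 24 h samples spread over more than 1 log2 unit. Hells, a chromatin remodeller of replicating cells, read 6.33 to 6.93 at 24 h and 3.90 to 4.21 at 8 h (5.47-fold). Chek1, the kinase of the replication checkpoint, read 6.37 to 7.03 at 24 h and 4.07 to 4.36 at 8 h (5.03-fold). Prickle1, a planar cell polarity gene, rose 5.43-fold, and this rise exceeded the wild-type rise by 1.42 (adjusted p of the difference 3.96e-07). Ifitm2, Selenoh and Atxn1 completed the 12 largest rises, at 6.05-fold, 5.04-fold and 4.79-fold. All 12 of these genes rose in wild type too.

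Ramp3, whose product modifies calcitonin-type receptors, showed the largest fall. It read 5.70, 5.53, 5.63 and 5.53 at 24 h and 7.94, 7.87, 7.76 and 7.59 at 8 h in Raptor-deficient samples, a fall of 4.56-fold (adjusted p = 1.89e-13). In wild type it fell by 0.98, and the Raptor-deficient change was more negative by -1.21 (adjusted p = 3.65e-06). Fosl2, an AP-1 transcription factor, read 7.96, 8.10, 7.95 and 7.92 at 24 h and 10.15, 10.03, 9.87 and 9.80 at 8 h (3.95-fold lower). Nfkbid, a nuclear regulator of NF-kappaB, read 7.74, 7.94, 8.03 and 8.13 at 24 h and 9.67, 9.82, 9.93 and 9.78 at 8 h (3.59-fold lower). Map2k3, the kinase upstream of p38, read 8.56 to 8.82 at 24 h and 10.01 to 10.16 at 8 h (2.64-fold lower). Each of these falls had its wild-type counterpart.

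St8sia6, a sialyltransferase gene, had no such counterpart among the called genes. It read 5.53, 5.80, 5.14 and 5.85 at 24 h and 7.18, 7.20, 7.26 and 7.56 at 8 h without Raptor, whereas the wild-type change was -0.14 (adjusted p = 0.685). The difference between the genotypes was -1.58 (adjusted p = 0.000793). Plagl1, a zinc finger transcription factor, read 5.98, 6.47, 6.49 and 6.27 at 24 h and 7.70, 7.68, 7.85 and 7.69 at 8 h without Raptor. In wild type it read 6.65, 7.33, 6.99 and 7.11 at 24 h and 6.96, 7.07, 7.28 and 7.47 at 8 h, and the difference in change was -1.25 (adjusted p = 0.00292). Rflnb, which binds filamin, also fell more than in wild type, by -0.99 (adjusted p = 0.0358). Sema7a, Vps37b, Arap2, Slc41a1 and Akap5 completed the 12 falls, at 3.37-fold, 3.16-fold, 2.90-fold, 2.83-fold and 2.62-fold, and the differences from their wild-type changes were not called.

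**Figure D2:**
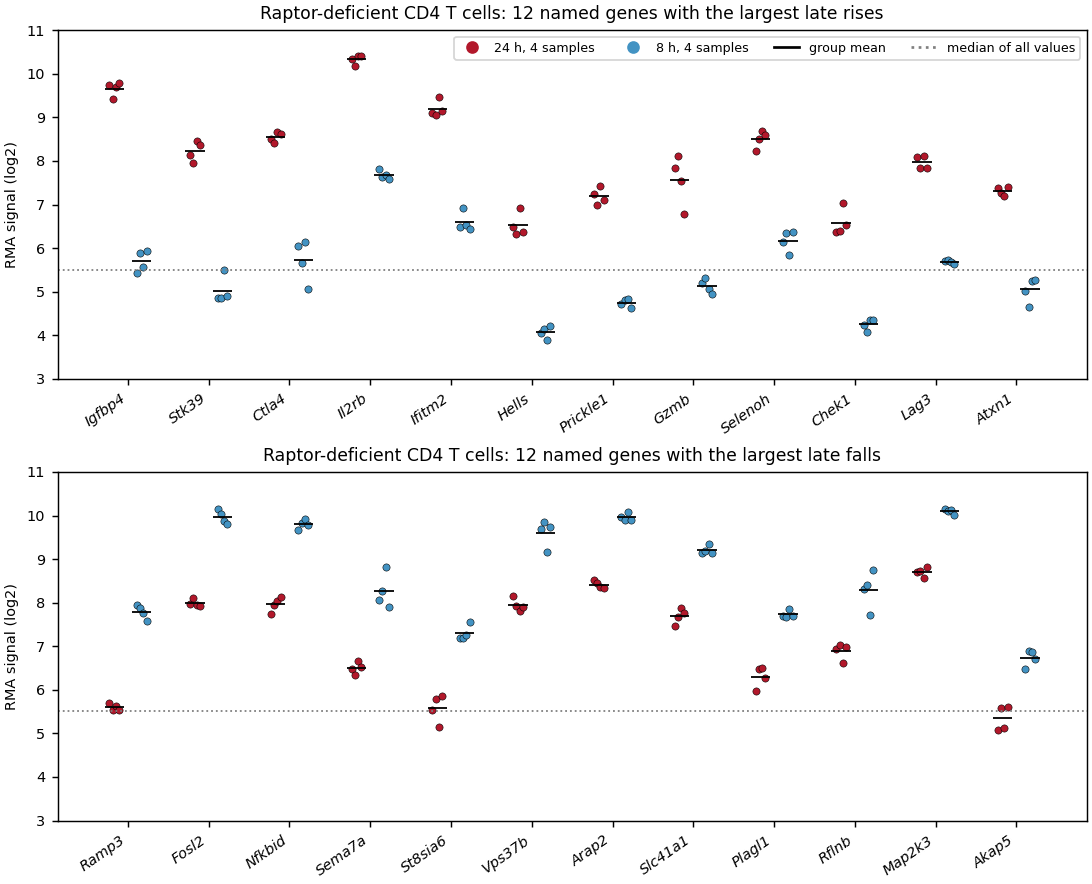
Log2 signal in each Raptor-deficient sample for the 12 largest rises (top) and the 12 largest falls (bottom), 24 h to the left of 8 h, with group means as bars and the median of all values, 5.51, as a dotted line. The 24 genes were taken only from those in which no 24 h sample overlapped an 8 h sample, and Igfbp4 is the widest apart at 3.95.

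The genes were also grouped into 34 pathway lists, each read against the share of all genes called higher (15.2%) or lower (7.81%) in the Raptor-deficient interval. Lists of DNA replication, oxidative phosphorylation, sterol synthesis, mitochondrial translation and the proteasome had the highest shares of members that rose. Immediate early factors, NF-kappaB factors, Gimap genes and naive T cell genes had the highest shares of members that fell. Where a list below has 0 falls by limma's adjusted p, its members lower at an unadjusted p under 0.05 numbered 0 for mitosis, sterol synthesis, oxidative phosphorylation, the citric acid cycle, mitochondrial translation, glycolysis, the proteasome and cytosolic ribosomal proteins. They numbered 4 for the G1 list, 2 for the fatty acid list and 1 for the repair list.

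**Figure D3:**
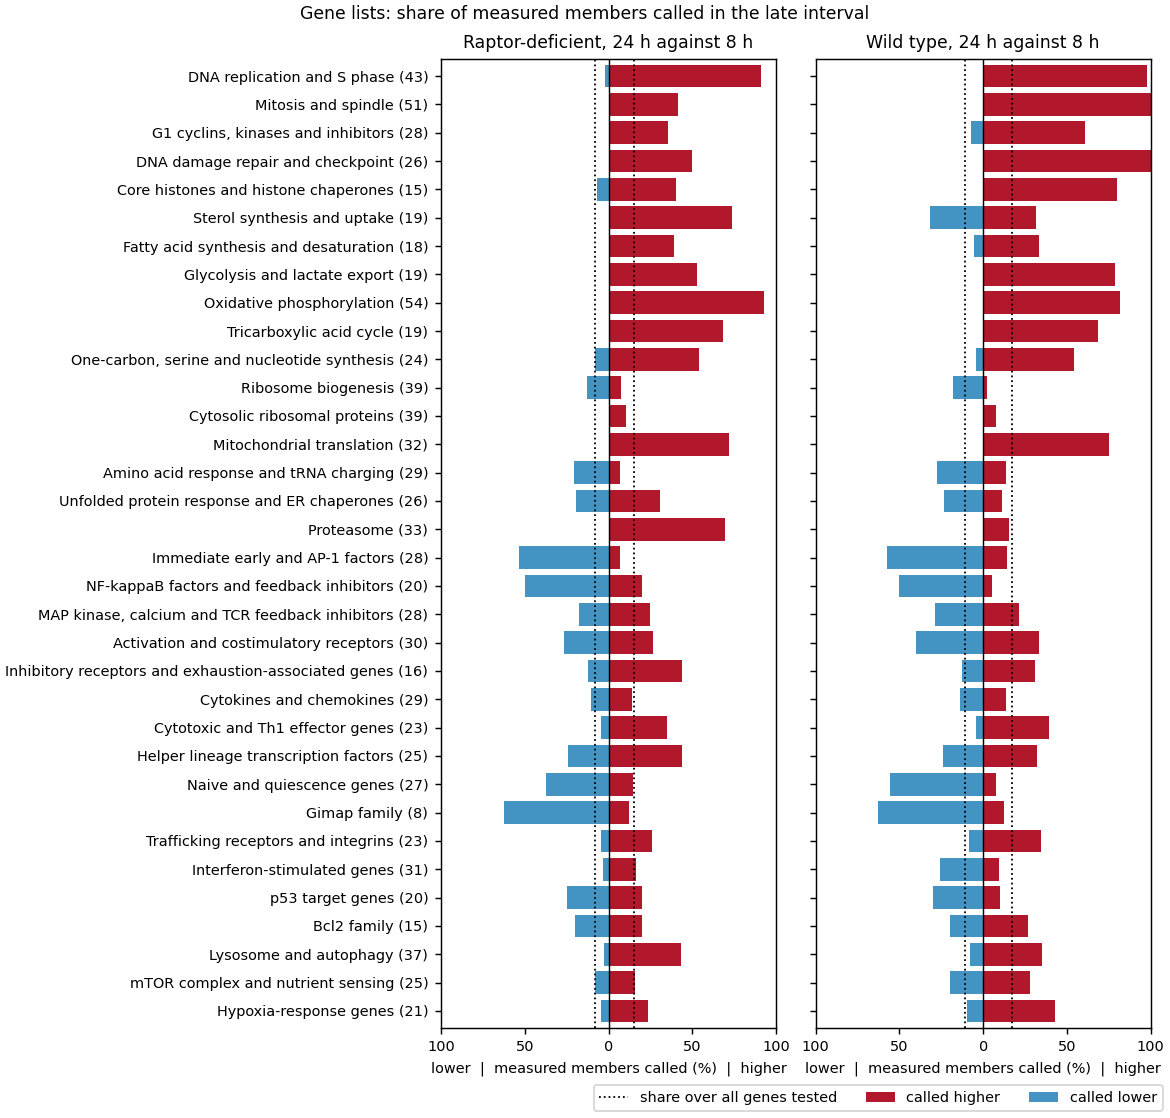
Share of measured members of 34 gene lists called higher (right) or lower (left) at 24 h against 8 h in Raptor-deficient cells (left panel) and wild-type cells (right panel), with the number measured in brackets. Dotted lines mark the shares over all genes tested, 15.2% and 7.81% without Raptor and 17.4% and 11.0% in wild type.

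DNA replication genes rose without Raptor. Of 43 measured members 39 were called higher and 1 lower, with a median difference of 1.06 against -0.01 over all genes tested. The same 39 and 1 were the counts without replicate 1 at 24 h. At 8 h, 6 of them were higher and 12 lower than in unstimulated cells, with a median difference of -0.15. Over all 17097 genes tested, 2734 were higher and 2878 lower in that comparison, with a median of 0.0. The helicase that unwinds replication forks is built from Mcm2 to Mcm7, and all 6 rose, by 1.10 to 1.83. Mcm6 read 8.94, 8.89, 9.11 and 8.97 at 24 h and 7.24, 7.07, 7.14 and 7.15 at 8 h (3.55-fold, adjusted p = 9.11e-12). Mcm5 read 8.54, 8.74, 8.78 and 8.66 at 24 h and 6.92, 7.06, 6.67 and 6.98 at 8 h (3.42-fold, adjusted p = 5.00e-10). Both genes were separated by time in every sample. Mcm3 and Mcm4 rose 3.12-fold and 2.75-fold. Uhrf1, which helps to copy DNA methylation onto new strands, read 7.95 to 8.38 at 24 h and 6.16 to 6.45 at 8 h (3.53-fold).

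The rest of the replication machinery followed. Gins1, a subunit of the helicase cofactor GINS, rose by 2.04, the largest change in the list. All 8 polymerase and primase genes, all 4 clamp loader (Rfc) genes and all 3 genes of the single-strand binding protein RPA rose, with medians of 0.98, 0.87 and 0.42. Tyms, which makes thymidylate, rose by 1.41, and Rrm2, a ribonucleotide reductase subunit, by 1.22. The exceptions were few. Orc1, of the origin recognition complex, fell by 0.48, and Cdt1, Gins3 and Pcna differed by 0.23, 0.31 and 0.38 without a call.

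In wild-type cells the same list rose further, with 42 of 43 members called higher and a median of 2.23. For 35 of the 43 members the Raptor-deficient rise was significantly smaller. The helicase had the smallest share of such genes among the replication groups: 3 of its 6 genes passed that test, and for Mcm6 and Mcm5 the difference in change was -0.36 (adjusted p = 0.307) and -0.67 (adjusted p = 0.0562). Mcm6 read 9.80 to 10.06 at 24 h and 7.61 to 7.97 at 8 h in wild type, so the Raptor-deficient levels lay lower at both times. At the other end, Cdc6, which loads the helicase, read 5.26 to 6.2 at 24 h and 4.21 to 4.53 at 8 h without Raptor, against 9.07 to 9.42 at 24 h and 4.14 to 4.85 at 8 h in wild type.

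Fewer genes of mitosis rose. Of 51 measured members 21 were called higher and 0 lower without Raptor (limma; median 0.21), and 17 were called higher without replicate 1 at 24 h. In wild type all 51 were called higher, with a median of 2.40, and the Raptor-deficient change was significantly smaller for each of them. For 27 of the 51 both Raptor-deficient stimulated means lay under the median of all values, as they did for 8183 of the 17097 genes tested. No background level was estimated. With dim genes left out, 12 members were called higher among 27 kept. Mki67, the proliferation antigen Ki-67, read 6.91, 6.67, 7.19 and 6.99 at 24 h and 5.38, 5.29, 5.11 and 5.52 at 8 h without Raptor (3.06-fold, adjusted p = 2.91e-07). Wild-type samples read 11.02, 10.96, 10.97 and 10.97 at 24 h and 5.0, 4.65, 5.82 and 5.16 at 8 h. Raptor-deficient samples at 24 h thus lay above their own 8 h samples and far below every wild-type 24 h sample. Ube2c, the ubiquitin-conjugating enzyme of the anaphase-promoting complex, read 6.46, 6.18, 6.49 and 6.08 at 24 h and 5.02, 5.10, 5.09 and 5.01 at 8 h without Raptor (2.38-fold), against 9.91 to 10.10 at 24 h and 5.10 to 5.56 at 8 h in wild type. Cdca8, a chromosomal passenger protein, rose 2.45-fold and Cdk1, the mitotic kinase, 1.89-fold.

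Among the 8 named genes with the most negative differences between genotypes, Aurkb, Birc5, Cenpf, Ccna2 and Cep55 were called higher in both, by much smaller steps without Raptor. Esco2 (difference -3.72) was not called without Raptor, at 0.13 (limma, adjusted p = 0.506) and a mean of 2.33 at 24 h. Aurkb, a mitotic kinase, read 4.26, 4.22, 4.55 and 4.14 at 24 h and 3.89, 4.09, 3.95 and 3.99 at 8 h without Raptor. In wild type it read 8.12 to 8.28 at 24 h and 3.73 to 4.0 at 8 h, and the difference in change was -4.07 (adjusted p = 5.58e-17). Its small Raptor-deficient rise of 0.31 was not called without replicate 3 at 24 h (adjusted p = 0.108) or without replicate 1 at 8 h (adjusted p = 0.0584). Birc5 (survivin), Cenpf, Ccna2 and Cep55 had differences of -3.84, -3.73, -3.52 and -3.51. Without Raptor they rose by 0.79, 0.46, 0.58 and 0.98, and Birc5 and Ccna2 reached means of 5.85 and 5.93 at 24 h while Cenpf and Cep55 stayed under the median of all values. The Cenpf call was lost without replicate 3 at 24 h (adjusted p = 0.0656). With the mean of all probe sets in place of the brightest one, Cenpf differed by 0.004 without Raptor (adjusted p = 0.984). Foxm1, a transcription factor of mitotic genes, differed by -0.05 (adjusted p = 0.832) without Raptor and by 1.19 in wild type.

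**Figure D4:**
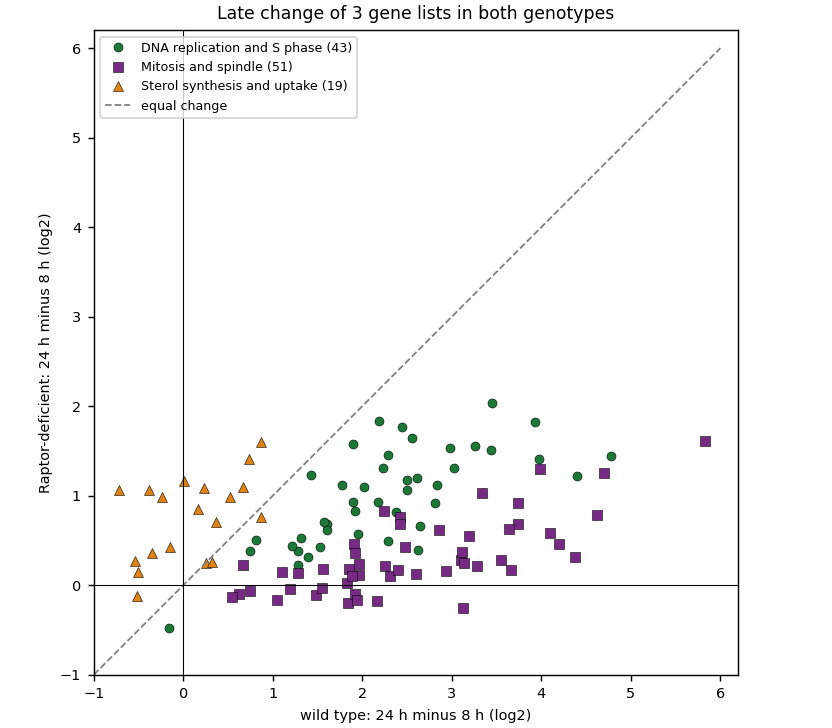
Late change (24 h minus 8 h, log2) of each measured member of the replication (43), mitosis (51) and sterol (19) lists in Raptor-deficient cells (vertical axis) against wild-type cells (horizontal axis), with a dashed line of equal change. Replication genes other than Orc1 (-0.48) lie above 0 and below the line, with medians of 1.06 without Raptor and 2.23 in wild type, mitosis genes lie between -0.26 and 1.61 on the vertical axis with a median of 0.21, and most sterol genes lie above the line.

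Promoter sequences of replication and mitosis genes are shown because these lists moved differently, and because E2F factors are known to act on promoters of replication genes and a cell cycle homology region is known in promoters of mitotic genes. Windows of 250 bases before to 50 after the start were taken from RefSeq (GRCm38.p6), and 13605 of the genes tested had one. The E2F-type motifs searched were TTTCCCGC, TTTGGCGC and TTTCGCGC, and the cell cycle homology region was TTTGAA, on both strands, and a pair of E2F-type matches on opposite strands may overlap. An E2F-type motif was found in 15 of 36 replication promoters (41.7%) and in 4 of 40 mitosis promoters (10.0%), against 3.20% of the genes tested and 1.84% of 32851 windows in the table. TTTGAA was found in 5 of 36 replication promoters (13.9%) and in 31 of 40 mitosis promoters (77.5%), against 15.6% of the genes tested and 17.9% of all windows. A match is a description of the letters and not a site of binding. Capitals mark the motifs, and each line reads 5′ to 3′ on the gene's strand.
Mcm6, chr1:128359656-128359955, minus strand, E2F-type motifs in capitals: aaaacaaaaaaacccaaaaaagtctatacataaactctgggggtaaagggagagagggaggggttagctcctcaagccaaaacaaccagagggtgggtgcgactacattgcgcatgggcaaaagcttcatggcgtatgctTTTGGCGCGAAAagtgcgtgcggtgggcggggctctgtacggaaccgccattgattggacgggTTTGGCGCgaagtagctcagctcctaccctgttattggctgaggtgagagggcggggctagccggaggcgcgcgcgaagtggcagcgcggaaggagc
Mcm5, chr8:75109259-75109558, plus strand, E2F-type motifs in capitals: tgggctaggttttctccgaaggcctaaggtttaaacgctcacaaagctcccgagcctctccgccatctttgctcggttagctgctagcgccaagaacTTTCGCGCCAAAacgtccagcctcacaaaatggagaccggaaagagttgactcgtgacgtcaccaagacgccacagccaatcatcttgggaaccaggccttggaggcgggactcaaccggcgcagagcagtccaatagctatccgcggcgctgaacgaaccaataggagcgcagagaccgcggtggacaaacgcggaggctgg
Mki67, chr7:135716330-135716629, minus strand, TTTGAA in capitals: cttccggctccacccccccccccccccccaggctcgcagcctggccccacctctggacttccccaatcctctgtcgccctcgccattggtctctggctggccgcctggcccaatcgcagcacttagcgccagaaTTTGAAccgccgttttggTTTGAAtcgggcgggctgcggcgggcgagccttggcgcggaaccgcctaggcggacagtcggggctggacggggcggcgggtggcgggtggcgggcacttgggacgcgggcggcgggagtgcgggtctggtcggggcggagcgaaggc
Ube2c, chr2:164769679-164769978, plus strand, TTTGAA on the opposite strand in capitals: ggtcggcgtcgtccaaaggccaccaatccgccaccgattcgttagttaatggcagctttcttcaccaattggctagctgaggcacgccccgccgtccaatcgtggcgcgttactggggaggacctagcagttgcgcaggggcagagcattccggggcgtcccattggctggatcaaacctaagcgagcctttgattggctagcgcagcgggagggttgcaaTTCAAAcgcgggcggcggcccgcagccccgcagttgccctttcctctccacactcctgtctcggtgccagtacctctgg
The Mcm6 window held 3 E2F-type motifs and the Mcm5 window 2, with an overlapping pair in each. Mki67 held 2 copies of TTTGAA and Ube2c held 1. These windows were chosen because they hold the motifs. Of other genes named above, Birc5 had no match in its window, and Uhrf1 had none in the first of its 2 windows and 1 E2F-type match in the other. The genes shown have their values above, Mcm6 and Mcm5 with Raptor-deficient rises of 1.83 and 1.77, and Mki67 and Ube2c with rises of 1.61 and 1.25.

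The controls of the G1 to S step rose in part. Of 28 measured members 10 were called higher and 0 lower (limma, median 0.17). Tfdp1, the partner of E2F factors, rose 1.55-fold, E2f3 1.51-fold, Cdk2 1.51-fold and Cdk6 1.57-fold. Without replicate 1 at 24 h and under several other settings 1 or 2 members were also called lower. The difference between genotypes was called for the cyclin genes Ccnd3, Ccne1 and Ccne2, but not for Ccnd1 (-0.11, adjusted p = 0.861) or Ccnd2 (0.32, adjusted p = 0.361). Ccnd3 (cyclin D3) read 7.83, 7.81, 8.00 and 7.92 at 24 h and 8.09, 8.14, 7.97 and 8.19 at 8 h without Raptor, a difference of -0.21 (adjusted p = 0.0841). Wild-type samples read 8.68 to 8.85 at 24 h and 7.33 to 7.58 at 8 h, and the difference in change was -1.52 (adjusted p = 8.01e-10). Ccne1 (cyclin E1) read 6.29 to 6.41 at 24 h and 6.01 to 6.13 at 8 h without Raptor, and its call was lost when any one of these 8 samples was left out (adjusted p = 0.0820 without replicate 1 at 24 h). In wild type Ccne1 rose by 2.38. E2f1 and E2f2 differed by 0.28 (adjusted p = 0.0707) and 0.57 (adjusted p = 0.00375) without Raptor, against 1.67 and 3.05 in wild type. Cdkn1a, the inhibitor p21, stayed at 7.05 to 7.54 at 24 h and 6.94 to 7.69 at 8 h without Raptor, against 6.28 to 6.67 at 24 h and 7.42 to 7.98 at 8 h in wild type (difference in change 1.25, adjusted p = 0.00134).

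DNA repair and checkpoint genes rose in 13 of 26 members (median 0.34), and all 26 rose in wild type. Beside Chek1, the fork protection pair Tipin and Timeless rose 2.30-fold and 2.02-fold, and the damage kinase Atm 1.43-fold. Brca1 and Bard1 were not called without Raptor, at 0.26 and -0.10. With dim genes left out, 8 of 16 members rose. Among 15 histone and chaperone genes 6 rose and 1, the linker histone H1f2, fell 1.56-fold. Hells, H2az1, H2az2, Hmgb2, Asf1b and Anp32e were the 6. The core histone genes H2bc4, H3c1, H3c15 and H4c9 were not called, and H3c1 read 12.01 to 12.14 at 24 h and 11.96 to 12.17 at 8 h without Raptor, against 13.24 to 13.35 at 24 h and 11.36 to 11.67 at 8 h in wild type.

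Sterol synthesis rose late without Raptor, and here the Raptor-deficient change was the larger one. Of 19 measured members 14 rose and 0 fell (limma; median 0.85), and the count was 14 without replicate 1 at 24 h. In wild type 6 rose and 6 fell, with a median of 0.16, and for 11 of the 19 members the late change was significantly more positive without Raptor. The median level of the members was 6.95 at 24 h and 5.96 at 8 h without Raptor, against 7.37 and 7.43 in wild type. Dhcr7, the last enzyme of cholesterol synthesis, read 7.90, 7.68, 7.95 and 7.76 at 24 h and 6.18, 6.33, 6.10 and 6.30 at 8 h (3.03-fold, adjusted p = 1.20e-12). It had fallen by 0.64 between the unstimulated state and 8 h, so the 24 h samples exceeded both earlier times. Mvd, the mevalonate pathway decarboxylase, read 6.73 to 6.94 at 24 h and 5.16 to 5.66 at 8 h (2.66-fold). Fdft1, squalene synthase, read 6.94 to 7.12 at 24 h and 5.73 to 6.21 at 8 h (2.12-fold).

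Cyp51 and Msmo1, which remove the methyl groups of lanosterol, changed in opposite directions in the 2 genotypes. Cyp51 read 8.81, 8.75, 8.67 and 8.75 at 24 h and 7.69, 7.74, 7.95 and 7.37 at 8 h without Raptor, a rise of 1.06 ± 0.11 (adjusted p = 3.86e-08). In wild type it read 9.11, 9.25, 9.28 and 9.27 at 24 h and 9.62, 9.62, 9.65 and 9.54 at 8 h, and the change of -0.38 was also called (adjusted p = 0.00846). The genotypes were therefore further apart at 8 h than at 24 h. Msmo1 read 6.98, 6.71, 6.60 and 6.77 at 24 h and 5.99, 5.74, 5.96 and 5.11 at 8 h without Raptor, against 6.59, 6.71, 7.03 and 6.87 at 24 h and 7.68, 7.67, 7.38 and 7.32 at 8 h in wild type. Its difference in change was 1.78 (adjusted p = 5.76e-06). Idi1, isopentenyl diphosphate isomerase, read 10.14 to 10.50 at 24 h and 9.06 to 9.32 at 8 h without Raptor, against 10.93 to 11.12 at 24 h and 10.85 to 11.11 at 8 h in wild type. Srebf2, the transcription factor that drives these genes, rose by 0.42 (adjusted p = 0.00472) and differed from wild type by 0.57 (adjusted p = 0.0287). Insig1, which holds that factor in the endoplasmic reticulum, rose by 0.36 without Raptor and fell by 0.35 in wild type. Hmgcs1, at the entry of the pathway, differed by 0.14 without a call and stayed under the median of all values, with means of 4.43 at 24 h and 4.29 at 8 h.

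Fatty acid genes rose in 7 of 18 members with a median of 0.05. Acsl5, which activates long-chain fatty acids, rose 1.77-fold, the elongase gene Elovl6 2.02-fold and the desaturase gene Fads1 1.73-fold. Fasn and Acaca, the core synthesis enzymes, differed by 0.03 each, and both had risen between the unstimulated state and 8 h, Acaca by 1.69 and Fasn by 1.14. Acaca stood at 7.80 to 7.93 at 24 h and 7.57 to 7.99 at 8 h. No member was called lower on the deposited scale, and 1 or 2 were under 11 of the alternatives, among them array centring.

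Oxidative phosphorylation, the respiratory chain and ATP synthase of mitochondria, rose broadly. Of 54 measured subunit genes 50 rose and 0 fell without Raptor (median 0.66), and 46 rose without replicate 1 at 24 h, 47 after centring and 44 after loess. By complex, 21 of 22 complex I genes, 3 of 4 complex II genes, all 6 of complex III, 8 of 9 of complex IV and all 12 of ATP synthase rose, with medians of 0.76, 0.55, 0.45, 0.63 and 0.67. Atp5c1, the gamma subunit of ATP synthase, read 10.81, 10.73, 10.85 and 10.82 at 24 h and 10.01, 10.00, 9.98 and 9.96 at 8 h (1.76-fold, adjusted p = 3.39e-10). Ndufb10 of complex I read 9.18 to 9.44 at 24 h and 8.07 to 8.46 at 8 h (2.06-fold). Cox5b and Ndufa4 each rose 1.69-fold. Cycs, the electron carrier cytochrome c, differed by 0.14 and was not called.

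In wild type 44 of the 54 rose, with a median of 0.42. The median level of the members was 10.0 at 24 h and 9.36 at 8 h without Raptor, against 10.33 and 9.89 in wild type. The difference in change was called for 2 members, Ndufa4 and Atp5d, both more positive without Raptor. Atp5d read 10.88, 10.97, 11.09 and 11.09 at 24 h and 10.17, 10.29, 10.37 and 10.34 at 8 h without Raptor, against 10.99 to 11.05 at 24 h and 10.70 to 10.91 at 8 h in wild type. Its levels at 24 h overlapped between the genotypes. Citric acid cycle genes behaved alike: 13 of 19 rose and 0 fell (median 0.40), and no difference from wild type was called (limma; 3 members had an unadjusted p under 0.05). Suclg1, of succinyl-CoA ligase, rose 2.26-fold, Mdh1, a malate dehydrogenase, 2.0-fold, and citrate synthase (Cs) 1.42-fold.

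The machinery that translates mitochondrial messages rose as well, in 23 of 32 members with 0 falls (median 0.50; 22 without replicate 1 at 24 h). Mrpl18 read 9.16 to 9.43 at 24 h and 8.13 to 8.21 at 8 h (2.18-fold), and Mrpl4 read 8.36 to 8.66 at 24 h and 7.13 to 7.37 at 8 h (2.36-fold). Large subunit genes rose in 13 of 16 cases and small subunit genes in 9 of 12. No member differed from wild type in its change by limma's adjusted p, and 3 had an unadjusted p under 0.05.

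Glycolysis rose in 10 of 19 members and fell in none (median 0.44), against 15 of 19 in wild type (median 0.69). Tpi1, triosephosphate isomerase, read 8.30, 8.07, 8.47 and 8.17 at 24 h and 5.72, 6.36, 6.17 and 6.10 at 8 h without Raptor (4.49-fold, adjusted p = 7.82e-11). Eno3, an enolase, read 7.46 to 7.82 at 24 h and 5.31 to 5.88 at 8 h (4.26-fold) and rose more than in wild type by 0.80 (adjusted p = 0.0275). Pgk1 rose 1.92-fold, Gapdh 1.66-fold and Ldha 1.43-fold. The glucose transporter gene Slc2a1 read 8.79 to 9.16 at 24 h and 8.86 to 9.23 at 8 h, and Hk2, a hexokinase, differed by 0.35 (adjusted p = 0.0948). Slc16a3, a lactate exporter, differed by 0.11 without Raptor and by 1.83 in wild type (adjusted p of the difference 3.89e-05).

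Hypoxia-response genes, many of which depend on HIF-1, were called higher in 5 of 21 members and lower in 1 (median -0.01), against 9 and 2 in wild type. The member that fell was Ndrg1, a stress-response gene, by 1.17. Hif1a itself read 8.73 to 9.09 at 24 h and 8.94 to 9.16 at 8 h. Egln3, Bnip3, Ak4 and Pdk1 rose in wild type by 1.56, 0.97, 1.04 and 0.63 and differed by 0.20, 0.12, 0.07 and 0.04 without Raptor, and in these 4 the difference between genotypes was called. For 2 further members, Ddit4 and Ndrg1, the change was more positive without Raptor, by 0.90 (adjusted p = 0.000939) and 0.70 (adjusted p = 0.00293), since Ddit4 rose by 1.16 and Ndrg1 fell less than its 1.87 in wild type. These genes were chosen for mention after their values were seen. Egln1 and Ankrd37 rose 1.32-fold and 1.47-fold without Raptor.

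Serine, one-carbon and nucleotide synthesis rose in 13 of 24 members and fell in 2, Shmt1 and Impdh1 (median 0.35). Phgdh, the first enzyme of serine synthesis, read 7.68 to 7.87 at 24 h and 6.5 to 6.70 at 8 h (2.22-fold). Prps2, which makes the ribose donor of nucleotides, rose 2.36-fold, Psph 1.86-fold and the purine enzyme gene Paics 1.57-fold. No member differed from wild type in its change by limma's adjusted p, and 6 had an unadjusted p under 0.05.

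Ribosome biogenesis had already been raised at 8 h and hardly moved afterwards. Against unstimulated cells all 39 members were higher at 8 h, with a median of 1.48. Of all 17097 genes tested, 2734 were higher and 2878 lower in that comparison. In the late interval 3 rose and 5 fell (median -0.01), the 3 being Ubtf, Dkc1 and Polr1d and the 5 being Ncl, Rrs1, Rcl1, Ddx10 and Rrp1b. Falls numbered 3 without replicate 1 at 24 h or without replicate 3 at 8 h, and 9 after loess. Both intervals share the 8 h samples, so their values are given side by side only. Ubtf, which activates ribosomal RNA genes, read 9.15, 9.11, 9.18 and 9.16 at 24 h and 8.15, 8.02, 8.21 and 7.90 at 8 h without Raptor, and rose more than in wild type by 0.71 (adjusted p = 0.00126). Its 24 h levels overlapped those of wild type, 9.03 to 9.14. Ncl, nucleolin, fell 1.80-fold. Cytosolic ribosomal protein genes changed little: Rpl14, Rps26, Rpl3 and Rps18 of 39 rose (median 0.05), the Rpl3 and Rps18 calls were lost after loess, the Rps18 call also without replicate 2 or 3 at 24 h or replicate 1 at 8 h, and 9 rose with an intensity trend in the prior.

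Proteasome genes rose in 23 of 33 members and fell in none without Raptor (median 0.39), against 5 of 33 in wild type (median 0.15). The median level of the members was 9.65 at 24 h and 9.34 at 8 h without Raptor. In wild type it was higher at both times, at 9.97 and 9.86. The difference in change was called for 2 members, Psma5 and Psme1. Psma5, a core subunit, read 10.39, 10.33, 10.53 and 10.50 at 24 h and 9.78, 9.78, 9.94 and 9.86 at 8 h without Raptor, against 10.55 to 10.67 at 24 h and 10.26 to 10.61 at 8 h in wild type. Psme1, of the activator PA28, read 11.15 to 11.27 at 24 h and 10.74 to 10.95 at 8 h without Raptor, against 10.85 to 11.03 at 24 h and 11.05 to 11.18 at 8 h in wild type. Among the core subunits 5 of 7 alpha and 9 of 10 beta genes rose, and 2 of 5 ATPase genes of the regulatory particle. Psmb8, an immunoproteasome subunit, rose 2.06-fold.

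The unfolded protein response moved both ways, with 8 of 26 members higher and 5 lower (median 0.07). Xbp1, a transcription factor of this response and of secretory cells, read 9.15, 8.87, 9.04 and 9.02 at 24 h and 8.06, 7.74, 7.72 and 7.75 at 8 h without Raptor (2.30-fold, adjusted p = 4.27e-09). Wild-type samples read 8.70, 8.51, 8.80 and 8.75 at 24 h and 8.55, 8.74, 8.85 and 8.63 at 8 h, and the difference in change was 1.21 (adjusted p = 3.65e-06). Sdf2l1 and Sec61b, of the endoplasmic reticulum, rose 1.75-fold and 1.49-fold. Dnajb9, Ern1, Hspa5, Hyou1 and Dnajb11 were the 5 that fell, with Dnajb9 1.87-fold lower; falls numbered 3 without replicate 4 at 24 h, replicate 2 at 8 h or replicate 3 at 8 h, and 8 after loess. In the amino acid response list 2 of 29 members rose, Ddit4 and Sars, and 6 fell, among them the transporter gene Slc3a2 (1.41-fold) and Sesn2 (1.51-fold). Only 1 was called higher without replicate 1, 3 or 4 at 24 h or replicate 2 or 4 at 8 h. Atf4, the transcription factor of this response, fell by 0.47, but not with the mean of all probe sets (adjusted p = 0.0997). Ddit4 (REDD1), an inhibitor of mTORC1 signalling, read 8.52 to 8.95 at 24 h and 7.35 to 7.71 at 8 h without Raptor, against 8.57 to 8.67 at 24 h and 8.25 to 8.51 at 8 h in wild type.

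Lysosome and autophagy genes rose in 16 of 37 members, and Atg7 fell (median 0.30). The cathepsin genes Ctsb and Ctsa rose 2.05-fold and 2.37-fold, and Atp6v1a, of the proton pump that acidifies lysosomes, 2.13-fold. Ctsb read 9.08, 8.90, 9.18 and 9.23 at 24 h and 7.99, 8.10, 8.08 and 8.08 at 8 h, and it had been higher, with a mean of 8.87, in unstimulated cells. Fnip1, a partner of folliculin, rose 2.10-fold and more than in wild type by 0.67 (adjusted p = 0.00964). Members that fell numbered 2 without replicate 1 at 24 h and 3 without replicate 3 at 8 h. Wild type had 13 rises and 3 falls in this list. Genes of the mTOR complexes and of nutrient sensing were near the background share, with 4 of 25 higher and 2 lower (median 0.05). The 4 were Lamtor1, Lamtor2, Lamtor3 and Nprl2, and the 2 were Sesn2 and Slc38a9. Without replicate 3 at 24 h 2 were higher, and without replicate 1 at 24 h 4 were lower. Mtor read 8.04 to 8.23 at 24 h and 8.14 to 8.36 at 8 h, and Rictor, the scaffold of mTORC2, differed by -0.34 (adjusted p = 0.0524).

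Early response genes fell. Immediate early and AP-1 factors were raised at 8 h in 21 of 28 members (median 1.29 against unstimulated cells). Over all genes tested, 2734 of 17097 were raised at 8 h. In the late interval 15 of 28 fell and 2 rose without Raptor (median -0.36). In wild type 16 fell and 4 rose. The difference in change was called for Fosl2 alone, with a larger fall without Raptor (difference -0.54, adjusted p = 0.0454). Fosl2 was higher without Raptor at both times, with 7.06 to 7.29 at 24 h and 8.42 to 8.70 at 8 h in wild type. It was already higher in unstimulated cells, with means of 8.57 without Raptor and 7.06 in wild type (limma, difference 1.51, adjusted p = 2.79e-09). Nr4a1 (Nur77), an orphan receptor induced by antigen receptor signals, read 10.03, 10.02, 10.04 and 9.93 at 24 h and 11.06, 11.03, 11.12 and 11.02 at 8 h without Raptor (2.07-fold lower). Egr1 and Egr2 fell 1.62-fold and 1.75-fold, and Nr4a3 1.84-fold. The 2 that rose were Batf and Irf8, which act in differentiating T cells, and Irf8 read 9.17 to 9.65 at 24 h and 7.12 to 8.17 at 8 h (2.99-fold). Myc read 11.60, 11.78, 11.81 and 11.69 at 24 h and 11.85, 11.95, 12.17 and 11.86 at 8 h, a difference of -0.24 that was not called (adjusted p = 0.0927).

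NF-kappaB factors and their feedback inhibitors fell in 10 of 20 members and rose in 4 (median -0.40). Beside Nfkbid, the deubiquitinase gene Tnfaip3 (A20) read 8.06 to 8.61 at 24 h and 9.28 to 9.80 at 8 h (2.44-fold lower). Nfkb2 fell 1.57-fold, Traf1 1.70-fold and the inhibitor gene Nfkbia 1.40-fold. The 4 that rose were Otud7b, Tnip1, Nfkbie and Bcl3, of which 2 were called after loess. Nfkbie differed from wild type by 0.81 (adjusted p = 0.00423). Feedback inhibitors of kinase and antigen receptor signals were called higher in 7 of 28 members and lower in 5. Cish and Socs2, which limit cytokine receptor signals, rose 2.82-fold and 2.80-fold, and Cish read 9.41 to 9.74 at 24 h and 7.82 to 8.38 at 8 h. The falling members included the phosphatase genes Dusp1 (2.11-fold) and Ptpn22 (1.59-fold). Ptpn22 fell less than in wild type, by a difference of 1.02 (adjusted p = 2.15e-05).

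**Figure D5:**
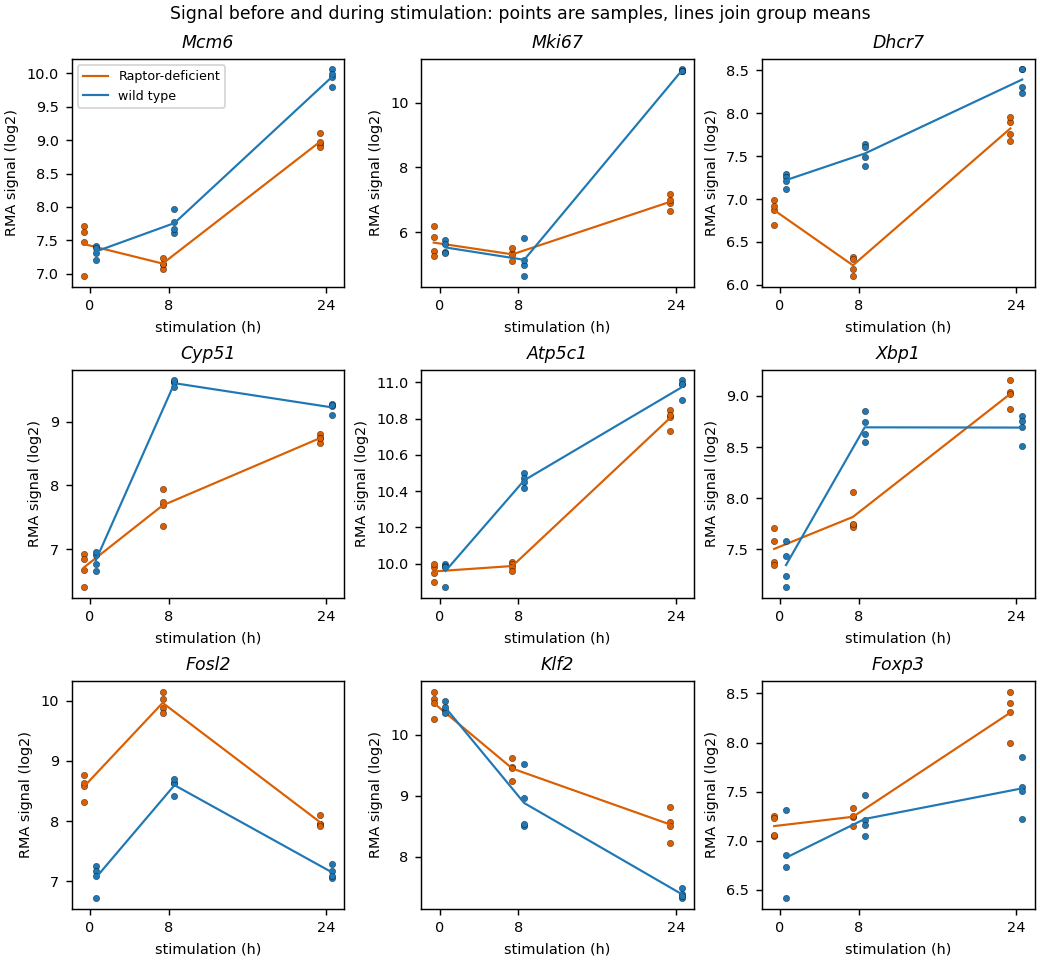
Log2 signal of 9 genes in unstimulated cells and at 8 h and 24 h, with 1 point per sample and lines through the group means. Mki67 at 24 h reads 6.67 to 7.19 without Raptor and 10.96 to 11.02 in wild type, Dhcr7 and Xbp1 rise without Raptor after 8 h, and Fosl2 peaks at 8 h in both genotypes.

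Activation and costimulatory receptors moved both ways, with 8 of 30 higher and 8 lower (median -0.08). The rises included Il2rb, Il12rb1, a subunit of the receptors for IL-12 and IL-23 (3.45-fold), and Cd44, the adhesion receptor of activated cells. Cd44 read 8.56, 8.38, 8.83 and 8.6 at 24 h and 7.34, 6.88, 7.44 and 7.09 at 8 h without Raptor. The falls included Cd69, the early activation antigen, which read 9.56 to 9.82 at 24 h and 10.80 to 11.03 at 8 h (2.33-fold), and Cd82 (2.44-fold). Cd82 fell more than in wild type by -0.68 (adjusted p = 0.000436). Il2ra, the alpha chain of the IL-2 receptor, read 10.88 to 10.92 at 24 h and 10.20 to 10.55 at 8 h. The groups did not overlap, yet the difference of 0.56 missed the threshold (adjusted p = 0.0873). The fit uses a spread shared by all 6 groups. The SD of Il2ra without Raptor was 0.01 at 24 h and 0.15 at 8 h. In unstimulated samples it was 0.50 without Raptor and 0.76 in wild type. Tfrc, the transferrin receptor gene, read 9.60 to 9.76 at 24 h and 9.44 to 9.73 at 8 h, a difference of 0.11 that was not called (adjusted p = 0.517). In wild type Tfrc rose by 0.61, and the difference in change was -0.51 (adjusted p = 0.0331).

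Of 16 inhibitory receptor genes 7 rose and 2, Vsir and Cd274, fell. Fasl, the death ligand, rose by 1.05 but stayed under the median of all values, at 4.53 to 5.26 at 24 h and 3.71 to 4.26 at 8 h, while wild type read 6.17 to 6.32 at 24 h and 6.37 to 6.92 at 8 h. Its receptor gene Fas read 6.19 to 6.45 at 24 h and 5.58 to 5.97 at 8 h without Raptor and differed in change from wild type by 0.69 (adjusted p = 0.0367). Pdcd1 (PD-1) differed by 0.08 and was not called. Cytokine and chemokine genes were near the background share (15.2% higher and 7.81% lower over all genes). Of 29 members 4 were called higher, Ccl22, Ifng, Ccl3 and Lta, and 3 lower, Il2, Tnf and Tgfb1. Of the 29, 15 stayed under the median of all values in both Raptor-deficient groups. Il2 read 9.88, 10.07, 10.39 and 10.14 at 24 h and 10.31, 10.75, 11.04 and 10.81 at 8 h (1.52-fold lower). Ccl22, a chemokine for CCR4, rose 2.95-fold. With dim genes left out, 2 of 12 rose.

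Effector genes of cytotoxic and Th1 cells rose in 8 of 23 members, and Zeb2 fell. Gzmb and Serpinb6b, an inhibitor of granule proteases, rose most, at 5.41-fold and 3.61-fold. Tbx21 (T-bet) read 6.05, 6.29, 7.0 and 5.58 at 24 h and 5.57, 5.04, 5.37 and 4.26 at 8 h without Raptor. The difference of 1.17 was called (adjusted p = 0.0136), but not without replicate 3 at 24 h (adjusted p = 0.0771) or replicate 4 at 8 h (adjusted p = 0.0754). Replicate 4 was also the lowest in wild type, with 6.8 at 24 h and 4.57 at 8 h. The fit does not pair samples by number, and whether this spread is shared by number was not tested. Ifng read 4.23 to 5.12 at 24 h and 3.15 to 3.71 at 8 h, under the median of all values at both times. With dim genes left out, 4 of 8 members rose, and members that fell numbered 2 without replicate 4 at 24 h, replicate 1 at 8 h or replicate 4 at 8 h.

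Lineage factors of helper T cells rose in 11 of 25 members and fell in 6 (median 0.18). Foxp3, the factor of regulatory T cells, read 8.4, 7.99, 8.31 and 8.52 at 24 h and 7.15, 7.24, 7.33 and 7.25 at 8 h without Raptor (2.09-fold, adjusted p = 3.63e-06). In wild type it read 7.55, 7.22, 7.51 and 7.85 at 24 h and 7.21, 7.46, 7.05 and 7.16 at 8 h, and the difference in change was 0.75 (adjusted p = 0.0332). Every Raptor-deficient 24 h sample lay above every other stimulated sample. Ikzf4, a partner of that factor, rose 2.45-fold. The 8 regulatory T cell markers averaged 7.89 to 8.02 at 24 h and 6.90 to 7.17 at 8 h, and 6 of them rose, Ctla4, Foxp3, Izumo1r, Tnfrsf18, Ikzf2 and Nrp1. Stimulated conventional T cells also express several of these genes. Gata3, the Th2 factor, rose 1.77-fold. Bcl6, of follicular helper cells, fell 2.51-fold, Runx1 1.97-fold and Irf4 1.78-fold. Stat5a read 9.73 to 9.99 at 24 h and 9.33 to 9.62 at 8 h without Raptor and differed in change from wild type by 0.58 (adjusted p = 0.00832).

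Of 27 measured genes of naive and quiescent T cells, 10 fell and 4 rose in the late interval (median -0.13), and in wild type 15 fell and 2 rose. Klf2, a quiescence factor that drives exit from lymph nodes, read 8.81, 8.58, 8.23 and 8.51 at 24 h and 9.62, 9.47, 9.25 and 9.45 at 8 h without Raptor (1.89-fold lower). Its target S1pr1 fell 2.42-fold, Satb1 2.04-fold, Klf3 1.87-fold, Btg2 1.78-fold and Txnip 1.52-fold. No member differed from wild type in its change by limma's adjusted p, and 7 had an unadjusted p under 0.05, although Klf2 was higher by 1.14 without Raptor at 24 h (adjusted p = 3.40e-06). The 4 that rose were Ikzf1, Foxo1, Pdlim4 and Rgcc, 2 without replicate 1 or replicate 3 at 24 h or without replicate 3 or replicate 4 at 8 h. Of 8 Gimap genes, GTPases of lymphocyte survival, Gimap5, Gimap4, Gimap6, Gimap8 and Gimap3 fell, and Gimap7 rose, though not without replicate 1 or 3 at 24 h or replicate 1 or 3 at 8 h. Gimap5 read 6.87 to 7.18 at 24 h and 8.17 to 8.48 at 8 h (2.32-fold lower).

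Trafficking genes rose in 6 of 23 members, and S1pr1 fell. Itgal, the alpha chain of LFA-1, read 9.96, 9.88, 10.07 and 9.97 at 24 h and 8.91, 8.93, 9.18 and 8.92 at 8 h without Raptor, against 9.71 to 9.92 at 24 h and 9.68 to 9.83 at 8 h in wild type (difference in change 0.97, adjusted p = 0.00667). The wild-type samples overlapped between the times. Itgb7, Selplg and Ccr4 rose 2.04-fold, 1.99-fold and 2.33-fold. Without replicate 4 at 8 h, 2 members fell. Interferon-stimulated genes rose in 5 of 31 members, near the background share, and Irf7 fell, a call lost without replicate 2 or 4 at 24 h or replicate 1, 2 or 3 at 8 h. Wild type had 3 rises and 8 falls. Ifit1, an antiviral RNA-binding protein gene, read 7.84, 7.49, 7.91 and 7.21 at 24 h and 6.31, 6.01, 5.93 and 5.67 at 8 h without Raptor, against 6.17, 6.19, 6.09 and 5.11 at 24 h and 6.16, 6.27, 5.96 and 5.40 at 8 h in wild type.

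Of 20 p53 target genes 4 rose and 5 fell, the rises being Ei24, Fas, Plk2 and Perp and the falls Btg2, Trp53inp1, Aen, Ddb2 and Bbc3. Trp53inp1 fell 1.44-fold and less than in wild type, by 0.82 (adjusted p = 5.99e-05). In the Bcl2 family 3 of 15 members rose, the survival gene Bcl2 (1.87-fold) and the death effectors Bak1 (1.83-fold) and Bad, and 3 fell, the BH3-only genes Bcl2l11 and Bbc3 and the survival gene Mcl1. Bcl2 read 10.50 to 10.64 at 24 h and 9.46 to 9.84 at 8 h. The Bcl2l11 call was lost with the mean of all probe sets (adjusted p = 0.137), and the Bbc3 call without replicate 1 at 8 h (adjusted p = 0.0920) or replicate 2 at 8 h (adjusted p = 0.0615). Without replicate 1 at 8 h, 1 member of the family fell.

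Among the 8 named genes with the largest positive differences in late change, Raptor-deficient minus wild type, all but Ifit1 and Trpm1 were called lower in wild type. Akr1c18, Xcl1 and Ikzf3 had no called change without Raptor. Msmo1, Cyp51, Slfn5, Ifit1 and Trpm1 were called higher without Raptor. Akr1c18, a steroid dehydrogenase gene, read 8.56, 8.16, 8.85 and 8.51 at 24 h and 8.17, 7.81, 8.6 and 8.17 at 8 h without Raptor. Wild-type samples read 5.57, 5.59, 5.81 and 6.45 at 24 h and 7.41, 7.41, 7.85 and 8.23 at 8 h, and the difference was 2.20 ± 0.29 (adjusted p = 6.10e-06). Xcl1, the chemokine lymphotactin, read 10.76, 11.05, 10.91 and 10.76 at 24 h and 10.79, 11.04, 11.03 and 10.74 at 8 h without Raptor, against 7.08 to 7.44 at 24 h and 9.04 to 9.26 at 8 h in wild type. In both genes the Raptor-deficient samples overlapped between the times and the wild-type samples did not. Ikzf3 (Aiolos) read 8.50 to 8.70 at 24 h and 8.14 to 8.58 at 8 h without Raptor, against 7.82 to 8.17 at 24 h and 9.11 to 9.28 at 8 h in wild type. Slfn5, an interferon-inducible gene, rose by 0.70 without Raptor and fell by 0.79 in wild type. Trpm1, a cation channel gene, rose by 1.31 without Raptor. Counting all genes, 25 were called in opposite directions in the 2 genotypes, 14 of them higher at 24 h without Raptor and 11 lower. Of these, 21 also had a called difference between genotypes, a named symbol and at least 1 stimulated group mean of 5.51 or more. They include Gpr171, Stap1, Mfsd2a and Lad1, which rose without Raptor, and Wdr62, Abcg1, Gpd2 and Polg, which fell without it. Gpd2, the mitochondrial glycerol-3-phosphate dehydrogenase gene, fell by 0.47 without Raptor and rose by 0.41 in wild type. These genes were chosen for mention after their values were seen.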

How the data were processed

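RNA from 24 samples, 6 groups of 4, was amplified from 20 ng and hybridised to Affymetrix HT MG-430 PM arrays, per the labels' protocols. The deposited log2 values came from RMA, and Partek 6.5 was also used, per the submitters' processing notes. Nothing was normalized again. Of 45141 probe sets, 28898 had 1 gene symbol, 551 had several and 15692 were unnamed here. Where several probe sets named a gene, the brightest on average stood for it, which gave 17097 genes. limma 3.58.1 in R 4.3.3 fitted 6 group means to all 24 samples (18 residual degrees of freedom). P-values are two-sided and were adjusted by the Benjamini-Hochberg method over all genes within each comparison, with 0.05 as the limit for a call. A fold is 2 to the power of the log2 difference. The number of arrays limits the precision. On simulated data of 17097 genes for the Raptor-deficient 24 h against 8 h comparison, the fit recovered 82.1% of genes changed 1.5-fold, 95.5% of those changed 2-fold and 100% of those changed 4-fold, with 15 false calls. In that simulation 200 genes were changed, all others had equal means in every group, and the noise was independent between samples. The real data had 3927 calls, so recovery and false calls there may differ.

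Named genes are the 12 largest rises and 12 largest falls, the 8 largest differences between genotypes each way, up to 4 called genes per list with the smallest p, and a fixed set of further list members. The rises and falls came from genes called with and without replicate 1 at 24 h and fully separated by time. Their higher group mean had to reach the median of all values. The genotype differences came from genes called for that difference with a stimulated mean reaching that median. Gene models without a named symbol were passed over in these sets. Any other gene was picked with its values in view. The members and lists were chosen with earlier results of these data known. Lists are described by counts and medians with no test of their own. The alternatives were another probe set rule, dim genes left out, other samples or priors in the fit, array weights, other scalings, a replicate block, and samples left out.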

Additional observations from a re-analysis of the deposited data

Results flagged for a closer look

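In 21 of 408 groups of 4 samples, 1 sample stood apart from the other 3 by Dixon's criterion, and chance alone flags about 1 in 20 groups. At 8 h without Raptor, replicate 3 was high for Stk39 (5.49, others 4.85 to 4.9), Plagl1 (7.85), Ccne1 (6.13), Sesn2 (7.13), Ccl22 (6.22, others 5.08 to 5.14), Lta (7.99) and Itgal (9.18). Replicate 4 at 8 h was low for Cenpf (3.41), Hif1a (8.94) and Suclg1 (6.88). Replicate 1 at 8 h was high for Xbp1 (8.06) and for the mean of the B cell list (5.49), and low for Ctsb (7.99). At 24 h without Raptor, replicate 3 was high for Slc2a1 (9.16), Tipin (8.46) and Irf8 (9.65) and low for Bcl6 (8.53) and Gimap5 (6.87). Replicate 1 at 24 h was high for Bbc3 (6.47) and for the mean of the liver list (5.71), and replicate 4 for Trpm1 (6.58).

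The 16 named genes with the largest differences in late change between genotypes are listed here. They were taken only from genes called by the test of that difference, so passing it was a condition of entry. Those with a more positive change in Raptor-deficient cells were Akr1c18 (2.2 on the log2 scale), Xcl1 (1.85), Msmo1 (1.78), Ifit1 (1.69), Trpm1 (1.56), Slfn5 (1.49), Ikzf3 (1.44) and Cyp51 (1.44). Those with a more negative change were Mki67 (-4.21), Aurkb (-4.07), E2f8 (-4.0), Birc5 (-3.84), Cenpf (-3.73), Esco2 (-3.72), Ccna2 (-3.52) and Cep55 (-3.51).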

How the results depend on the processing

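The count of genes called between 24 h and 8 h without Raptor stayed within 1.5 times its 3927 under every alternative run, between 3256 without replicate 3 at 24 h and 4889 with array weights. Leaving out 1 of the 8 samples gave 3256 to 3668. With the replicate block the count was 4015, and the block gave 4906 in wild type and 813 for the difference between genotypes. The labels do not say that the numbers pair samples. Deviations of same-numbered Raptor-deficient samples at 24 h and 8 h correlated at 0.00707 to 0.153, which is not above 0.1 for every pair, so the block was not taken as the design. Replicates 1, 3 and 4 at 8 h correlated best with their own number at 24 h, and replicate 2 did not. Between the genotypes at 24 h, same-numbered samples correlated at 0.251, 0.0641, 0.171 and 0.105, and each Raptor-deficient sample correlated best with its own number, while at 8 h the values were 0.196, 0.0162, 0.236 and 0.062. This is a hint of pairing from the data, not from the design, and replicate 1 of both 24 h groups also shares liver transcripts. The count of genes that differed between genotypes was 774 and moved to 1294 with array weights. Of 189 named genes called without Raptor, 172 were called under every alternative with a value, and 17 were lost under at least 1. No result for a named gene reversed. Omitting the unstimulated Raptor-deficient replicate 1, chosen after seeing the data, gave 4361. Dim signal limits the mitotic, cytokine and cytotoxic lists. The causes of these shifts were not tested.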
